A study of Homo sapiens with 23 samples.

Results

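The genes described here are 41 human genes that license replication origins and copy DNA. They are a list of gene names, and all 41 were found among the 57477 genes of the count table. They fall into 9 roles: 6 subunits of the origin recognition complex, 3 genes that load the helicase or block its loading, the 6 subunits of the MCM2-7 helicase, 6 helicase activators, 4 genes of polymerase alpha-primase, 5 of polymerases delta and epsilon, 6 of the sliding clamp and its loader, 2 that finish the lagging strand, and 3 that supply nucleotides. Expression was measured by RNA-seq of bulk total RNA in H1-hESC, an established human embryonic stem cell line of wild-type genotype, on its way to cardiomyocytes. The labels call the cells stem cells on day 0, mesendoderm on day 1, cardiac mesoderm on day 3, cardiac progenitors on days 5 and 7, and cardiomyocytes on days 10, 14 and 28. There were 3 libraries per day and 2 on day 10, or 23 in all, from 1 line. The labels do not give the agents used to direct differentiation or any step that selects cardiomyocytes.

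A chromosome is copied once per cell cycle because loading and firing of the helicase are kept apart in time. The origin recognition complex marks an origin, CDC6 and CDT1 load the ring-shaped MCM2-7 helicase onto it in G1, and geminin (GMNN) later binds CDT1 to block a second loading. In S phase CDC45 and the GINS complex turn the loaded ring into a moving helicase, polymerase alpha-primase lays down primers, and polymerases delta and epsilon extend them on the PCNA clamp. Many of these genes are transcribed under E2F factors, which the retinoblastoma protein family holds back in cells that leave the cycle. Fetal cardiomyocytes still divide, whereas most adult ones do not.

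The shallowest library held 4330334 counts (day 5 replicate 3) and the deepest 22089595 (day 0 replicate 2). Each of the 41 genes passed the filter on low counts, as did 22245 genes in all. Levels are in CPM, the count scaled to a common library size after TMM normalisation, given as mean ± SD over the libraries of a day. Changes are log2 fold changes from edgeR's quasi-likelihood test. A gene is called higher or lower at an adjusted p below 0.05, adjusted by Benjamini-Hochberg over all genes tested. The labels do not say whether replicates were separate cultures, so the p-values may reflect technical spread alone. Pluripotency and cardiomyocyte markers moved in the direction of the labels. The summed level of 8 pluripotency genes fell from 5249 ± 131.7 CPM on day 0 to 2.83 ± 0.179 on day 28. That of 10 cardiomyocyte genes was 59.2 ± 1.25 on day 0 and 11930 ± 1257 on day 7, labelled cardiac progenitors. It was 24480 ± 511 on day 14 and 40840 ± 7298 on day 28. Summed endoderm or liver markers stood at 2988 ± 2030 CPM on day 14, labelled cardiomyocytes. In bulk RNA, fewer cells in the cycle and less of a transcript per cell cannot be told apart.

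Because E2F sites are the shared control feature known for these genes, the promoters were read for their letters. RefSeq promoter sequences (GRCh38.p14, 250 bases before to 50 after the start site) were matched for 37 of the 41 genes. MCM4, MCM5, GINS4 and POLD3 were not matched. The E2F letters searched on both strands were TTTCCCGC, TTTGGCGC, TTTCGCGC and TTTGCCGC. They occurred in 18 of the 37 promoters (48.65%) and in 908 of all 27305 promoters of that length (3.325%). All 4 matched MCM2-7 promoters held a match, against 1 of 6 in the origin recognition complex. The letters CCAAT, on either strand, were in 21 of 37 (56.76%) against 35.7% of all promoters, and the CHR letters TTTGAA or TTCGAA in 2 (5.405%) against 16.62%. CCAAT and the CHR letters were searched in the same window, and a base may belong to more than one match. A match describes the letters only and is neither a shown binding site nor a cause, and no match says only that these letters are not in this window. Stretches of 90 bases upstream of the start are shown for 5 genes with a match on which the results below turn, followed by ORC4 and RFC1, which have none and had the courses least like the mean of the other genes; capitals mark the E2F letters. In MCM6 each run in capitals holds a match on both strands that overlap, so the promoter counts 4 matches.
MCM6, chr2:135876514-135876603, minus strand: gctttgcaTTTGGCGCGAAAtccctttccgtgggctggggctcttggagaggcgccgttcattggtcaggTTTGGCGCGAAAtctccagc
CDT1, chr16:88803699-88803788, plus strand: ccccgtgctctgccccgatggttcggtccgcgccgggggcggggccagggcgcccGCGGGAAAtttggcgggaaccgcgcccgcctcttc
GINS2, chr16:85688955-85689044, minus strand: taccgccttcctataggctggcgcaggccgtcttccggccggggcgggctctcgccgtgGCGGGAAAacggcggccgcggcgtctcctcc
PCNA, chr20:5126633-5126722, minus strand: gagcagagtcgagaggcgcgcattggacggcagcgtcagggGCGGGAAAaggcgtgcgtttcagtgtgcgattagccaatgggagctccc
TYMS, chr18:657563-657652, plus strand: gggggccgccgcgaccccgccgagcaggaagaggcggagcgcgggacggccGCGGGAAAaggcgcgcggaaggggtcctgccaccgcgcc
ORC4, chr2:148021552-148021641, minus strand: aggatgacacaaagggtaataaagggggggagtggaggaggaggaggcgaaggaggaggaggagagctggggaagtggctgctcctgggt
RFC1, chr4:39366363-39366452, minus strand: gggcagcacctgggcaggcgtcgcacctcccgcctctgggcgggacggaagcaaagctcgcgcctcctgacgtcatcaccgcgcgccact

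The 41 genes were highest in the stem cell and mesendoderm libraries and lowest on day 14. Their summed level was 6935 ± 53.5 CPM on day 0, 7454 ± 531 on day 1, 4139 ± 133 on day 3 and 4709 ± 435 on day 5. It then dropped to 2053 ± 95.8 on day 7, 1218 ± 128 on day 10 (n = 2) and 1093 ± 82.4 on day 14, and stood at 1413 ± 363 on day 28. These are 29.6% of the day 0 level on day 7, 15.8% on day 14 and 20.4% on day 28. The highest daily mean fell on day 0 for 18 genes and on day 1 for 20, on day 5 for POLA2 and POLD1, and on day 3 for TYMS. The lowest fell on day 14 for 26 genes, on day 28 for 5, on day 7 for 5, on day 10 for 4, and on day 1 for ORC4 alone. The plot of summed levels by role shows that the sums of the origin recognition complex and the clamp loader group levelled off after day 7. Those of the helicase, its activators and the lagging strand genes went on falling to day 14. The flat sums held opposite changes from day 7 to day 14. ORC1, PCNA and RFC2 were called lower (log2 changes -3.20, -0.75 and -1.19), and RFC1 and ORC4 higher (1.11 and 0.57). Both higher calls were lost in some fits that left out 1 library. The ORC4 value was negative once the GC content and length trends of each library were removed.

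**Figure D1:**
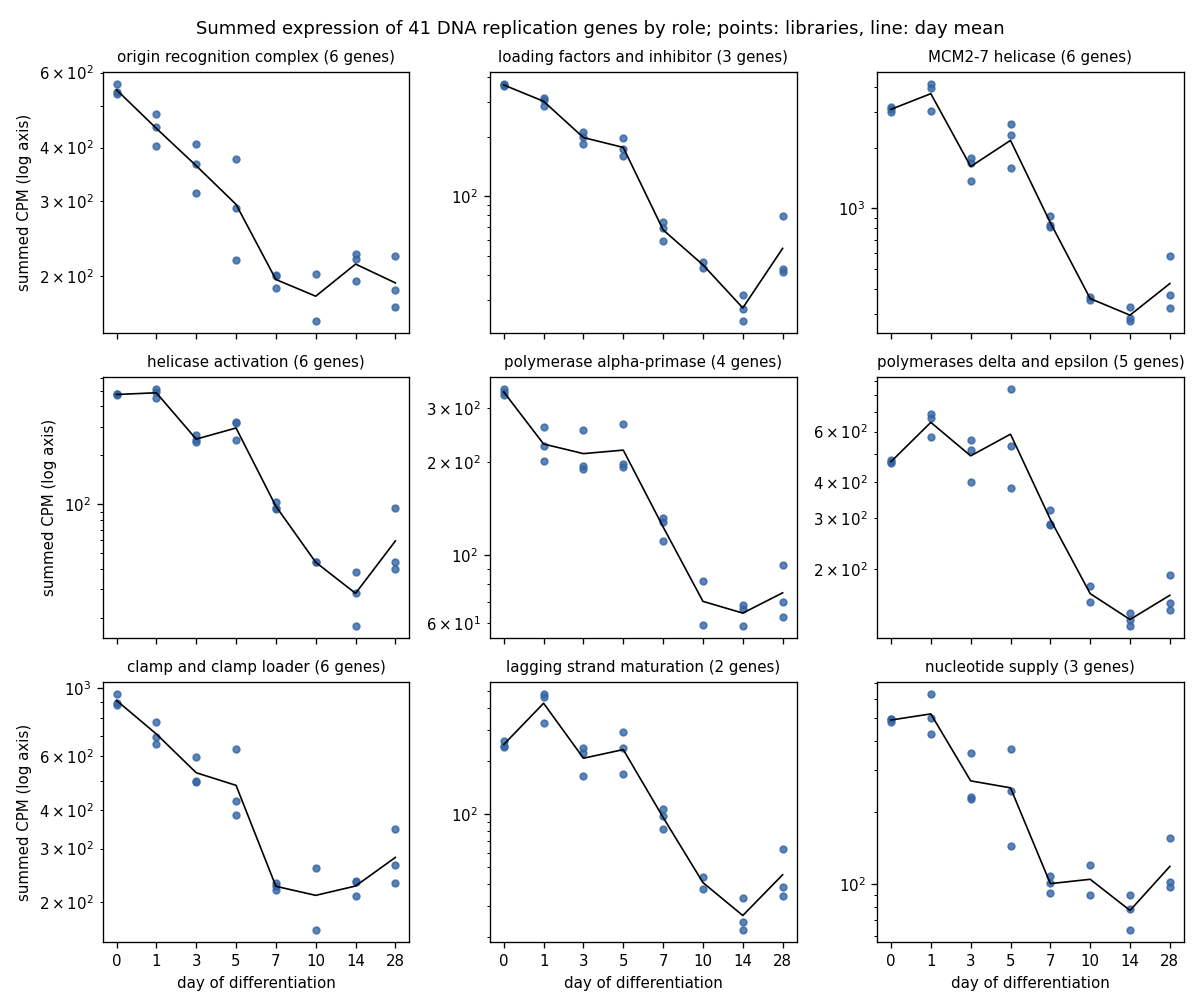
Summed CPM (log axis, which differs between panels) of the genes of each role against the day of differentiation; each point is a library and the line joins the day means. The helicase activators go from 472.8 CPM on day 0 to 28.4 on day 14 and 59.6 on day 28, while the origin recognition complex stays between 179 and 213 CPM in the mean from day 7 on.

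**Figure D2:**
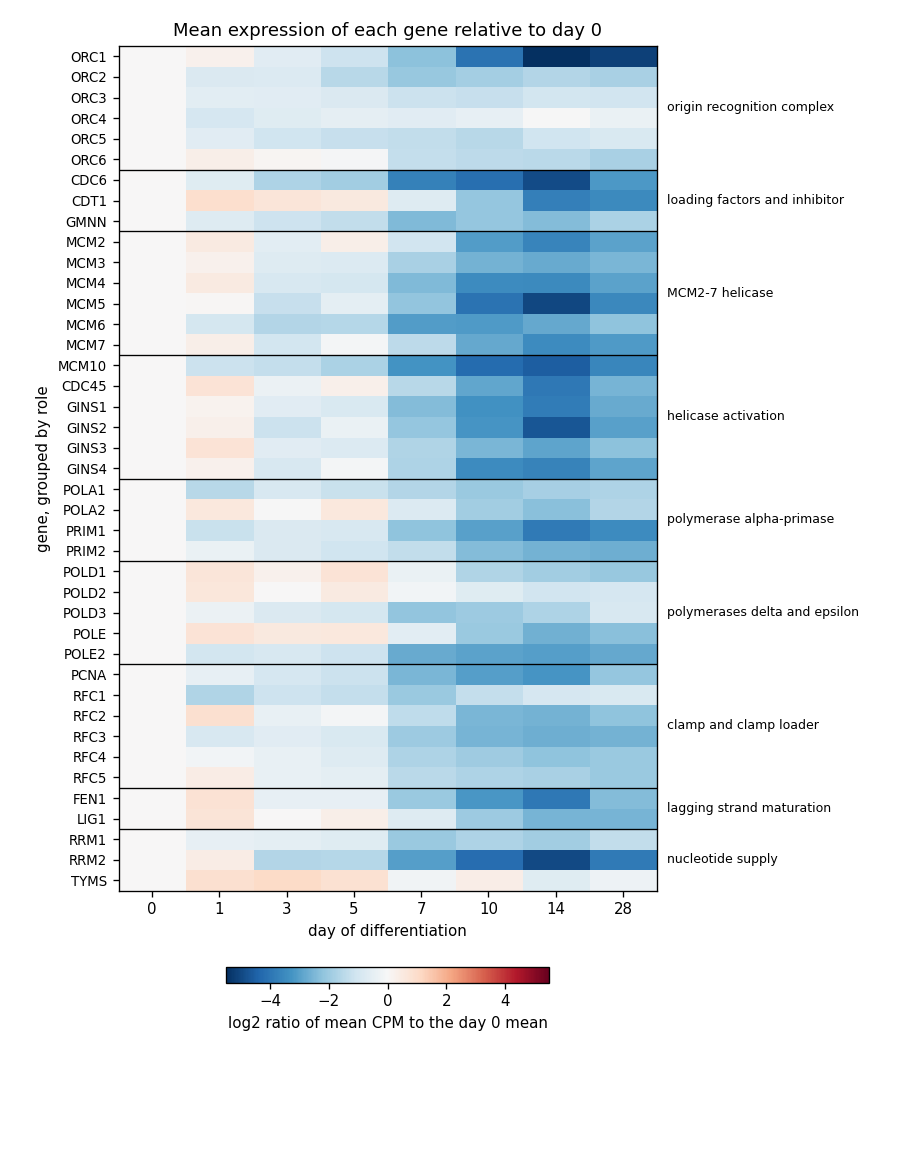
Colour gives the log2 ratio of each gene's mean CPM on a day (columns) to its mean on day 0 (rows, grouped by role; blue is below day 0). ORC1, CDC6, MCM5, GINS2 and RRM2 are the darkest on day 14, and ORC4 stands at 97.6% of its day 0 level there.

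Within the origin recognition complex, ORC1 left the other subunits. ORC1 binds DNA through its ATPase domain and is the subunit known to be lost and remade in each human cell cycle. Its libraries read 134, 129.8 and 137.4 CPM on day 0, 180.6, 134.9 and 162.1 on day 1, and 24.13, 27.83 and 31.13 on day 7. They read 6.588 and 9.33 on day 10, 1.58, 2.863 and 4.668 on day 14, and 2.735, 2.473 and 6.345 on day 28. Every library from day 10 on was below every library before it, and day 28 overlapped day 14. ORC1 on day 14 had 2.27% of its day 0 mean. Its change from day 7 to day 14 was -3.20 (SE 0.35, adjusted p = 3.08e-07), and from day 0 to day 28 it was -5.11 (SE 0.36, adjusted p = 6.25e-12).

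ORC2, ORC3, ORC4 and ORC5 form the core that stays together through the cycle, and none of them was called lower on day 14 than on day 7. ORC3 alone was called lower once the GC content and length trends of each library were removed (-0.51, adjusted p = 0.0021). Here and below, that removal also takes out any change between days that goes with GC or length. ORC2 read 121, 130.7 and 123.4 CPM on day 0, 25.7, 33.73 and 28.95 on day 7, 34.53, 46.17 and 42.39 on day 14, and 34.3, 36.08 and 36.99 on day 28. It was therefore lowest on day 7, and all day 14 libraries lay above all day 7 libraries, a difference that did not pass the test (log2 change 0.48, SE 0.35, adjusted p = 0.274). ORC4 read 72.64, 80.43 and 68.18 CPM on day 0, 36.56, 43.68 and 36.73 on day 1, 66.24, 76.95 and 72.67 on day 14, and 52.85, 56.33 and 63.66 on day 28. It was called higher on day 14 than on day 7 (log2 change 0.57, SE 0.21, adjusted p = 0.0355), a call lost in 5 of the 6 fits that left out 1 library. With the GC and length trends removed the value was -0.35 (adjusted p = 0.105). ORC4 shares exon bases with ACVR2A and MBD5 on the other strand. ORC6, a small subunit that joins the core loosely, was at 21.9 ± 1.51 CPM on day 7, 19.1 ± 2.06 on day 14 and 15.8 ± 4.13 on day 28.

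Per kilobase of transcript, the order of the subunits on day 0 was ORC3, ORC1, ORC6, ORC2, ORC5 and ORC4, with no overlap between the libraries of neighbours. The level of ORC3 there was 46.9 ± 2.51 CPM per kb and that of ORC4 11.3 ± 0.947, so the highest and lowest subunits were 4.17-fold apart. On day 14 ORC3 stood at 23.2 ± 1.06 CPM per kb and ORC1 at 0.973 ± 0.497, a 23.9-fold range. The subunits ORC6, ORC4, ORC5 and ORC2 lay between 9.57 and 11.8 CPM per kb on day 14, and the libraries of neighbours in that order overlapped. ORC1 had thus moved from the second place to the last.

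**Figure D3:**
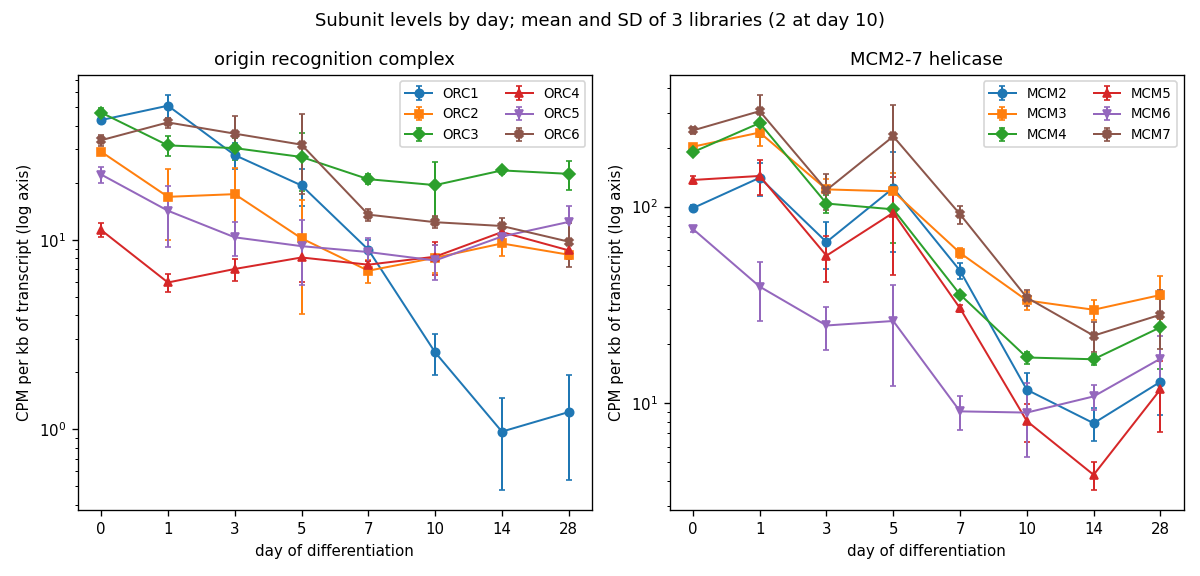
CPM per kb of the canonical transcript (log axis) by day for the origin recognition complex (left) and the MCM2-7 helicase (right); points are means and bars the SD of 3 libraries (2 on day 10). ORC1 goes from 51.0 on day 1 to 0.973 on day 14, and MCM6 is the lowest helicase subunit up to day 7 and lies above MCM2 and MCM5 on day 14.

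The loading factors and their inhibitor had different values from day 7 to day 14. CDC6, the ATPase that recruits CDT1 and the helicase, read 221.8, 219.7 and 226.5 CPM on day 0, 20.2, 16.26 and 14.32 on day 7, 3.611, 7.397 and 10.85 on day 14, and 18.48, 14.22 and 41.24 on day 28. It was the gene with the deepest fall by day 7, to 7.602% of day 0, and all 3 libraries of day 28 lay above those of day 14. CDT1, the other loader, read 62.52, 53.76 and 56.76 CPM on day 0, 116.1, 86.63 and 125.4 on day 1, and 53.31, 113.5 and 107.1 on day 3. It read 64.28, 38.75 and 151 on day 5, 36.88, 30.24 and 39.11 on day 7, then 10.72 and 15.94 on day 10. The CDT1 libraries of day 14 read 4.288, 4.295 and 4.163, and those of day 28 read 4.066, 4.636 and 6.417. CDT1 thus had its highest daily mean on day 1, but its libraries overlapped those of day 3 (log2 change -0.26, adjusted p = 0.572). It spread widely on day 5 and did not separate between days 14 and 28.

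GMNN read 82.48, 87.78 and 80.07 CPM on day 0, 17.07, 13.25 and 15.77 on day 7, 15.57, 15.27 and 16.65 on day 14, and 20.4, 22.48 and 31.87 on day 28. Between days 7 and 14 GMNN did not move past the test (log2 change 0.05, SE 0.29, adjusted p = 0.912), whereas CDT1 fell by 3.06 (SE 0.39, adjusted p = 2.31e-06) and CDC6 by 1.21 (SE 0.41, adjusted p = 0.0196). The CDC6 call did not hold without day 7 replicate 1 or without day 14 replicate 1. On day 28 all GMNN libraries lay above those of day 14, with a log2 change of 0.65 (SE 0.28, adjusted p = 0.131). CDT1 has 64.3% GC and GMNN 43.6%; with GC and length trends removed, CDT1 had -2.27 (adjusted p = 2.46e-09), CDC6 -1.58 (adjusted p = 0.00105) and GMNN -0.37 (adjusted p = 0.114). The difference in change between GMNN and the loaders was not itself tested.

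In the helicase, 5 of the 6 subunits were called lower on day 14 than on day 7, and MCM6 was not called. MCM2 read 338.2, 325 and 349.2 CPM on day 0, 505.7, 377.7 and 561.5 on day 1, 157.9, 150.2 and 178 on day 7, 25.5, 22.91 and 32.93 on day 14, and 32.75, 39.48 and 59.99 on day 28. MCM5 read 473.5, 452.9 and 492.2 on day 0, 101.8, 103 and 110.4 on day 7, 12.41, 14.91 and 17.41 on day 14, and 27.5, 35.85 and 58.4 on day 28. MCM6 read 276, 297.4 and 293.3 on day 0, 139, 198.8 and 103.1 on day 1, 40.41, 27.1 and 34.65 on day 7, 38.03, 36.39 and 47.31 on day 14, and 48.27, 56.02 and 85.22 on day 28. Between these days MCM5 read 533.9, 383.5 and 569.3 on day 1, 135.6, 228.3 and 219.8 on day 3, and 287.3, 174.5 and 504.1 on day 5. MCM2 and MCM5 were called lower from day 1 to day 3, at -1.09 and -1.35 (adjusted p = 0.0071 and 0.00156), and again from day 5 to day 7. MCM6 was called lower from day 0 to day 1 (-0.97, adjusted p = 0.0271) and from day 5 to day 7 (-1.54, adjusted p = 0.00345), and had -0.66 from day 1 to day 3 (adjusted p = 0.119). From day 7 to day 14 MCM5 changed by -2.82 (SE 0.34, adjusted p = 1.04e-06), MCM2 by -2.58 (SE 0.33, adjusted p = 1.97e-06) and MCM7 by -2.05 (SE 0.30, adjusted p = 1.07e-05). MCM6 had 0.26 over the same step (SE 0.34, adjusted p = 0.557) with overlapping libraries. The change from day 7 to day 14 also went with transcript GC content, with Pearson's r of -0.657 across the 41 genes and -0.441 across 21987 genes. MCM2, MCM5 and MCM7 have 57.4%, 56.3% and 55.8% GC and MCM6 43.2%. With the GC and length trends of each library removed, MCM5 had -2.23 (adjusted p = 1.91e-08), MCM2 -1.96 (adjusted p = 2.65e-08), MCM7 -1.45 (adjusted p = 9.64e-07) and MCM6 -0.20 (adjusted p = 0.457). These adjusted p-values treat the fitted trends as known. MCM7 shares 392 exon bases with AP4M1 on the other strand.

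Although the ring holds one copy of each subunit, transcript levels per kilobase were unequal. On day 0 the order was MCM7, MCM3, MCM4, MCM5, MCM2 and MCM6, from 244.3 ± 10.4 down to 77.0 ± 3.04 CPM per kb, with no overlap between neighbours. On day 14 it was MCM3, MCM7, MCM4, MCM6, MCM2 and MCM5, from 29.9 ± 3.52 down to 4.31 ± 0.723, and among neighbours only MCM7 and MCM4 overlapped. The range between the highest and lowest subunit was 3.17-fold on day 0, 10.1-fold on day 7, 6.93-fold on day 14 and 3.02-fold on day 28. On day 28 every neighbour in the order overlapped.

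The helicase activators fell the most as a group, to 6.004% of their day 0 sum on day 14. MCM10, a replication fork scaffold that is not part of the MCM2-7 ring, read 138.9, 141.2 and 131.8 CPM on day 0, 12.36, 15.18 and 14.42 on day 7, 2.821, 5.726 and 9.462 on day 14, and 8.131, 6.259 and 19.54 on day 28. CDC45, the helicase cofactor, read 33.64, 34.25 and 36.69 on day 0, 61.91, 47 and 68.61 on day 1, 13.73, 10.12 and 12.04 on day 7, 1.354, 2.147 and 3.28 on day 14, and 4.213, 4.095 and 9.229 on day 28. GINS2 read 100.6, 93.9 and 98.99 on day 0, 23.54, 20.96 and 23.55 on day 7, 3.272, 2.982 and 5.046 on day 14, and 9.018, 7.418 and 20.26 on day 28. In CDC45 and GINS2 the 3 libraries of day 28 lay above the 3 of day 14, and in MCM10 they overlapped. All 6 activators were called lower on day 14 than on day 7, from -1.23 for MCM10 to -2.59 for GINS2. The MCM10 call was lost in 5 of the 6 fits that left out 1 library.

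The polymerases diverged by subunit. In polymerase alpha-primase, PRIM1, the catalytic primase, changed by -3.47 from day 0 to day 28 (SE 0.25, adjusted p = 1.36e-11), while POLA1, the catalytic polymerase subunit, changed by -1.68 (SE 0.36, adjusted p = 0.000276). PRIM1 shares exon bases with NACA on the same strand, which can take reads from its count. POLD2, an accessory subunit of polymerase delta, kept 91.1% of its day 0 mean on day 7 and 47.5% on day 14. POLD3, another accessory subunit, was at 17.7 ± 1.73 CPM on day 7, 24.2 ± 0.506 on day 14 and 42.9 ± 6.05 on day 28, so that all day 28 libraries lay above all day 14 libraries (log2 change 0.83, SE 0.33, adjusted p = 0.0923). In polymerase epsilon the catalytic subunit POLE and its partner POLE2 took different courses. POLE was at 133.8 ± 6.83 CPM on day 0, 227.5 ± 23.5 on day 1, 90.3 ± 4.97 on day 7 and 21.3 ± 3.55 on day 14. POLE2 read 43.59, 50.13 and 42.8 on day 0, 20.33, 28.89 and 17.63 on day 1, 6.081, 7.709 and 6.225 on day 7, 4.175, 6.084 and 6.434 on day 14, and 5.174, 4.559 and 9.445 on day 28. From day 7 on the POLE2 libraries overlapped between successive days, whereas POLE fell by 2.08 from day 7 to day 14 (SE 0.30, adjusted p = 9.71e-06). POLE has 56.4% GC and POLE2 39.7%; with GC and length trends removed POLE2 was called lower over that step as well (-0.93, adjusted p = 0.00297), beside -1.64 for POLE (adjusted p = 1.21e-06).

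PCNA, the sliding clamp, read 341.9, 359.5 and 342.9 CPM on day 0, 59.44, 59.87 and 64.01 on day 7, 29, 39.37 and 40.5 on day 14, and 57.8, 76.03 and 102.2 on day 28. Its day 14 libraries lay below, and its day 28 libraries above, all of the other day's. RFC1, the large subunit of the clamp loader, went the other way over the middle of the course. It read 212.9, 268.1 and 219.2 CPM on day 0, 60.05, 100.6 and 60.23 on day 1, 61.99, 52.88 and 57.69 on day 7, 130.9 and 57.52 on day 10, 120.3, 127.7 and 124.1 on day 14, and 115.9, 128 and 147.4 on day 28. RFC1 was called higher on day 14 than on day 7 (log2 change 1.11, SE 0.37, adjusted p = 0.0188), a call lost without day 7 replicate 2 or 3. With GC and length trends removed the change was 0.49 (adjusted p = 0.0371). The small subunits RFC2, RFC3, RFC4 and RFC5 had log2 values between -1.19 and -0.31 over the same days, of which only RFC2 passed, although all 4 had every day 14 library below every day 7 library.

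FEN1, the nuclease that removes the flap of an Okazaki fragment, read 149.4, 149.5 and 160.9 CPM on day 0, 293.1, 209.3 and 304.6 on day 1, 36.49, 30.48 and 46.07 on day 7, 5.981, 9.783 and 14.38 on day 14, and 21.51, 24.18 and 41.17 on day 28. LIG1, the ligase that seals the fragment, was at 16.4 ± 2.37 CPM on day 14 and 16.2 ± 4.81 on day 28. FEN1 therefore rose from day 14 to day 28 while the day 28 and day 14 libraries of LIG1 overlapped. FEN1 lies beside FADS2 and shares 49 exon bases with it.

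Among the nucleotide suppliers, RRM2, the small subunit of ribonucleotide reductase made in S phase, read 238.4, 248.7 and 257 CPM on day 0, 349.6, 310.4 and 318.4 on day 1, and 86.09, 81.71 and 76.75 on day 3. It read 30.21, 30.6 and 31.13 on day 7, 4.288, 7.158 and 12.36 on day 14, and 12.57, 9.349 and 28.26 on day 28. The libraries of days 14 and 28 overlapped for RRM2. RRM1, its large partner, was at 55.3 ± 7.99 CPM on day 7, 59.1 ± 7.89 on day 14 and 88.3 ± 20.3 on day 28. TYMS, thymidylate synthase, departed from its group: 16.96, 15.64 and 16.04 CPM on day 0, 33.23, 33.54 and 33.15 on day 3, 13.53, 12.89 and 15.77 on day 7, 19.12 and 22.44 on day 10, 7.561, 13.12 and 9.714 on day 14, and 11.38, 11.59 and 16.51 on day 28. TYMS shares 967 exon bases with ENOSF1 on the other strand and the strand setting of the counting is not stated, so its level is uncertain.

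From day 0 to day 1, as cells left the stem cell state, calls among the 41 genes went in both directions, at shares near those of all genes. There were 8 called higher and 8 called lower, against 15.3% and 16.5% of all genes tested. Their median log2 change was 0.24, that of all genes 0.05. The libraries of both days did not overlap for 17 genes that were higher and 14 that were lower, against 28.9% and 27.1% of all genes. The largest rises were picked out after their values were seen. CDT1 rose by 0.92 (SE 0.34, adjusted p = 0.0406) and RFC2 by 0.88 (SE 0.27, adjusted p = 0.0174). TYMS, whose level is uncertain, rose by 0.87 (SE 0.21, adjusted p = 0.00358) and FEN1 by 0.81 (SE 0.27, adjusted p = 0.0266). The largest falls were RFC1 at -1.66 (SE 0.37, adjusted p = 0.00163), POLA1 at -1.51 (SE 0.36, adjusted p = 0.00284), PRIM1 at -1.22 (SE 0.23, adjusted p = 0.000317) and MCM10 at -1.17 (SE 0.44, adjusted p = 0.0432).

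The direction of this first step went with the GC content of the transcript. Across the 41 genes, Pearson's r between GC content and log2 change was 0.742, and across 21987 genes it was 0.318; genes share libraries and are not independent, so no p is given. The transcripts of the 41 genes ranged from 37.4% to 64.8% GC with a median of 44.8%, against 48.3% for all genes tested. Libraries of the same day also differed along GC. In day 1 replicate 2, day 3 replicate 1 and day 5 replicate 2, the deviation of the 41 genes from the day mean had an r with GC of -0.728, -0.885 and -0.886. With the GC and length trends of each library removed, 9 genes were called higher and 8 lower from day 0 to day 1, of which 5 and 7 were also called before. The median then was -0.02, RFC1 had -1.11 (adjusted p = 3.45e-05), POLA1 -1.04 (adjusted p = 0.000102) and PRIM1 -0.81 (adjusted p = 6.85e-05), and FEN1 at 0.39 no longer passed (adjusted p = 0.157). CDT1 still passed at 0.45 (adjusted p = 0.0216). What the GC trend stems from was not tested, and its removal also takes out any change between days that goes with GC or length.

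**Figure D4:**
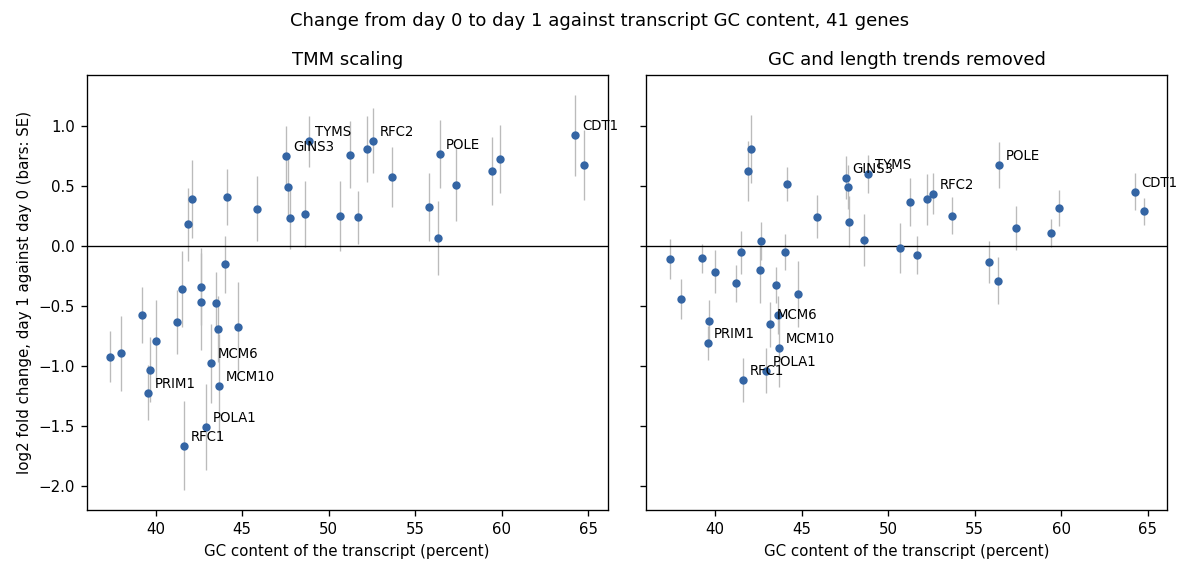
Log2 fold change from day 0 to day 1 (bars: SE) against the GC content of the canonical transcript in percent, 1 point per gene; left with TMM scaling, right with GC and length trends of each library removed. The slope across the 41 genes on the left (r = 0.742) is smaller on the right, where RFC1, POLA1 and PRIM1 stay the lowest of the named genes with MCM10.

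From day 1 to day 3, 17 genes were called lower and 0 higher by edgeR, against 19% and 18.2% of all genes. DESeq2 also called 0 higher, and 0 had a log2 value above 0 with an unadjusted p below 0.05. Libraries did not overlap for 19 lower and 2 higher genes, against 23.9% and 21.7%. The median of the 41 was -0.47 and that of all genes 0.04. In the helicase 5 of 6 subunits were called lower, and so were 5 of 6 activators. The lagging strand genes FEN1 and LIG1 were called lower as well, as were ORC1, CDC6, RFC2, RFC5 and RRM2. RRM2 fell by 2.00 (SE 0.34, adjusted p = 4.96e-05), GINS2 by 1.45 (SE 0.28, adjusted p = 0.000229), GINS3 by 1.38 (SE 0.25, adjusted p = 0.00015) and MCM4 by 1.36 (SE 0.25, adjusted p = 0.000155). In polymerase alpha-primase and polymerases delta and epsilon, 0 of 9 genes were called.

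From day 3 to day 5, 4 genes were called higher (MCM2, MCM7, GINS2 and GINS4) and 0 lower, against 10.3% and 6.33% of all genes. Their log2 changes lay between 0.78 and 0.91. DESeq2 called 0 lower as well, and 1 gene was lower at an unadjusted p below 0.05. Libraries did not overlap for 2 higher genes and 1 lower gene, against 10.4% and 9.47%. None of the 4 calls held in every fit that left out 1 library. The day 5 libraries differed widely for some genes; MCM2 read 375, 232.9 and 672.2 CPM there.

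The step from day 5 to day 7, within the days labelled cardiac progenitors, brought the broadest fall. All 41 log2 values were below 0, and 33 genes were called lower and 0 higher, against 5.02% and 5.32% of all genes. The median was -1.24, that of all genes -0.09. In 30 of the 41 genes every day 7 library lay below every day 5 library, and in 0 above, against 8.46% and 10.7% of all genes. DESeq2 called 0 higher as well, and 0 were higher at an unadjusted p below 0.05. All 6 helicase subunits, all 6 activators, the 3 loading genes, both lagging strand genes and the 3 nucleotide suppliers fell. The largest falls were CDC6 at -1.82 (SE 0.39, adjusted p = 0.00274), CDC45 at -1.81 (SE 0.30, adjusted p = 0.000147), GINS2 at -1.73 (SE 0.29, adjusted p = 0.000158) and POLE2 at -1.64 (SE 0.29, adjusted p = 0.000365). The 8 genes not called were ORC2, ORC3, ORC4, ORC5, POLA1, PRIM2, POLD2 and RFC1, and the smallest values were those of ORC5 and ORC4, both -0.13. In 22 of the 33 genes the call held without each library in turn. A fit restricted to these 6 libraries called 10 genes lower. Day 5 replicates 2 and 3 had the lowest correlation of any 2 libraries of the same day, 0.907.

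The next steps continued the decline in part of the set. From day 7 to day 10, 15 genes were called lower and 0 higher, against 3.5% and 4.17% of all genes, with a median of -0.80. DESeq2 called 0 higher, and 1 was higher at an unadjusted p below 0.05. Libraries did not overlap for 26 lower genes and 1 higher gene, against 23.5% and 24.6%. MCM2 fell by 2.01 (SE 0.37, adjusted p = 0.00149), MCM5 by 1.91 (SE 0.38, adjusted p = 0.00282), ORC1 by 1.80 (SE 0.37, adjusted p = 0.0039) and GINS4 by 1.77 (SE 0.34, adjusted p = 0.0022). Day 10 had 2 libraries, and without day 10 replicate 1 the count was 0. From day 10 to day 14, 4 genes were called lower and 0 higher, against 2.11% and 1.64% of all genes: CDT1 at -1.65, GINS2 at -1.47, ORC1 at -1.40 and TYMS at -1.04. DESeq2 called 0 higher, and 0 were higher at an unadjusted p below 0.05. Libraries did not overlap for 17 lower and 2 higher genes, against 22.5% and 22.7%. Each of these 4 calls was lost in at least 1 fit that left out 1 library, and the level of TYMS is uncertain because of its overlap with ENOSF1.

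Over both steps, day 14 against day 7 gave 25 genes lower and 2 higher (ORC4 and RFC1), against 19.5% and 22% of all genes, with a median of -1.19, that of all genes 0.06. Libraries did not overlap for 28 lower and 5 higher genes, against 29.1% and 32.8%. In 22 of these 27 genes the call held without each library in turn. Other markers moved over these days too. From day 5 to day 7 the summed stroma markers went from 3325 ± 725 to 1854 ± 504 CPM, smooth muscle from 461.8 ± 194 to 1172 ± 60.7, and cardiomyocyte markers from 2303 ± 763 to 11930 ± 1257. By day 14 stroma stood at 811.9 ± 224 CPM and smooth muscle at 309.3 ± 115. The stroma markers did not move alike. POSTN was called higher from day 7 to day 10 (3.19, adjusted p = 0.000693) and from day 10 to day 14 (3.22, adjusted p = 0.000152). COL1A2 was called lower from day 10 to day 14 (-1.52, adjusted p = 0.00796), and the other stroma markers were not called over that step. Endothelial markers went from 588.2 ± 6.80 on day 7 to 181.7 ± 36.2 on day 14, and endoderm or liver markers from 318 ± 32.4 to 2988 ± 2030. Their part in the falls was not tested. The median of the 18 genes with E2F letters in the promoter was -1.22 and that of the 19 without was -0.94. From day 0 to day 28 those medians were -2.53 and -2.06. The ranges overlapped: TYMS, with a match, had the smallest change from day 0 to day 28 at -0.30, and ORC1, without one, had the largest. The level of TYMS is uncertain because of its overlap with ENOSF1.

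From day 14 to day 28, within the days labelled cardiomyocyte, part of the set rose again. There were 8 genes called higher and 0 lower, against 7.96% and 7.78% of all genes, and 33 of the 41 log2 values were above 0. The median was 0.38, that of all genes -0.03. Every day 28 library lay above every day 14 library in 12 genes and below in 1, against 22.3% and 20.8% of all genes. DESeq2 called 0 lower as well, and 0 were lower at an unadjusted p below 0.05. This comparison shares the day 14 libraries with the one above. GINS2 rose by 1.70 (SE 0.31, adjusted p = 0.000307), CDC6 by 1.76 (SE 0.40, adjusted p = 0.00286), FEN1 by 1.53 (SE 0.29, adjusted p = 0.000461) and MCM5 by 1.44 (SE 0.33, adjusted p = 0.00255). CDC45 rose by 1.38 (SE 0.34, adjusted p = 0.00549), PCNA by 1.12 (SE 0.26, adjusted p = 0.0031), RRM2 by 1.08 (SE 0.35, adjusted p = 0.0356) and GINS1 by 1.04 (SE 0.32, adjusted p = 0.0286). The helicase activators gave 3 of the 8 calls; the origin recognition complex, polymerase alpha-primase and polymerases delta and epsilon gave 0 of their 15 genes. ORC4 and ORC6 had the lowest values, -0.32 and -0.27, and neither passed, although the ORC4 libraries of day 28 all lay below those of day 14.

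One library weighed on this rise. Day 28 replicate 3 was the highest of the 3 day 28 libraries in 41 of 41 genes, at 1.05 to 2.72 times the mean of the other 2, with a median of 1.60. The summed level was 1146 CPM in replicate 1, 1267 in replicate 2 and 1826 in replicate 3, against 1019, 1079 and 1182 in the day 14 libraries. The ratio of day 28 to day 14 was 1.29, and without day 28 replicate 3 it was 1.10. Without it 4 genes were called: GINS2 at 1.13 (adjusted p = 0.00688), FEN1 at 1.18 (adjusted p = 0.00846), MCM5 at 1.08 (adjusted p = 0.0374) and PCNA at 0.88 (adjusted p = 0.0348). These 4 kept their call in every fit run. CDC6 at 1.17 (adjusted p = 0.0558), CDC45 at 0.88 (adjusted p = 0.0931), GINS1 at 0.58 (adjusted p = 0.308) and RRM2 at 0.47 (adjusted p = 0.453) did not pass without it.

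**Figure D5:**
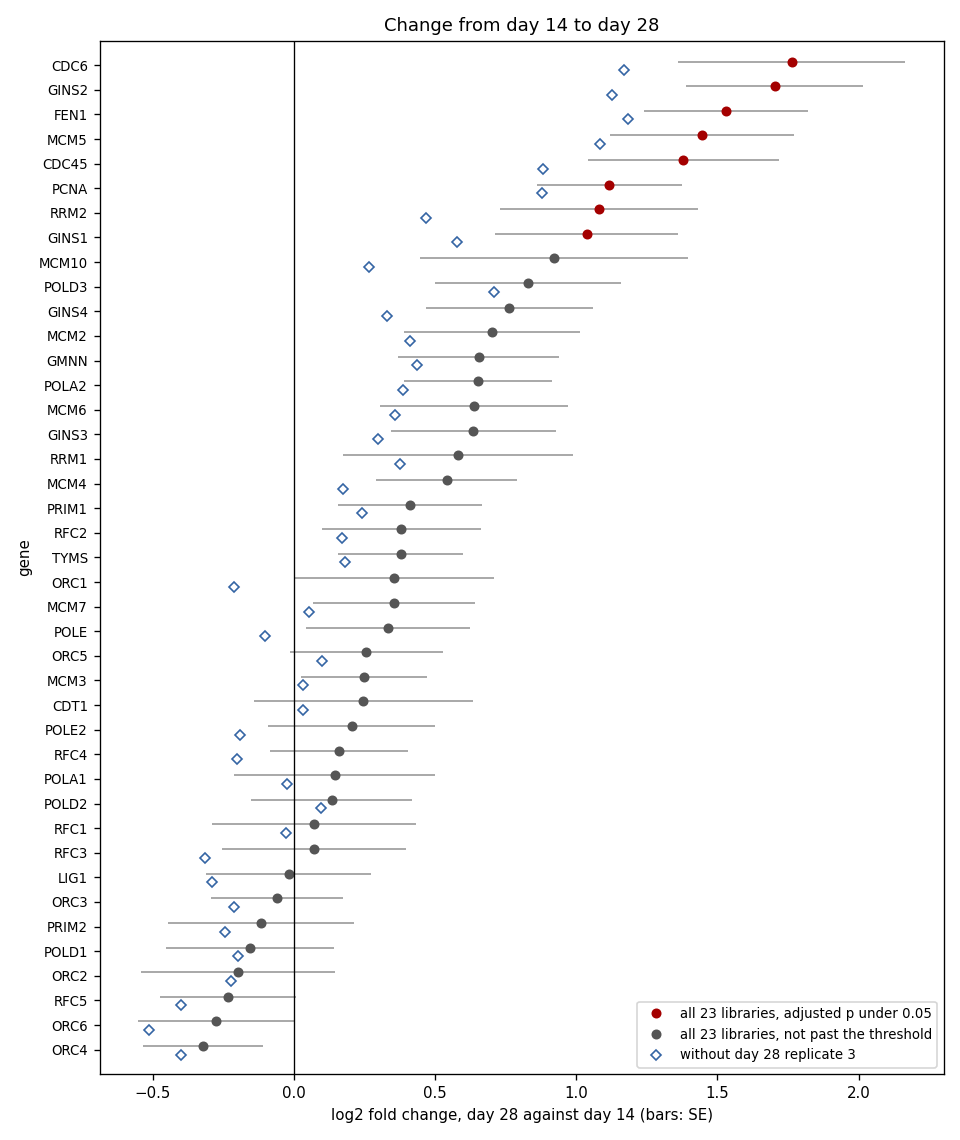
Log2 fold change from day 14 to day 28 for each gene (bars: SE); filled points come from all 23 libraries, red where the adjusted p is below 0.05, and open diamonds from the fit without day 28 replicate 3. CDC6, GINS2, FEN1 and MCM5 lead, and most diamonds lie to the left of their points.

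Other cell markers moved over the same step. The summed level of 20 mitosis genes was 382.2, 823.2 and 856 CPM on day 14 and 846.9, 669.8 and 1438 on day 28, so it too was highest in day 28 replicate 3. The 10 cardiomyocyte markers summed to 44260, 45800 and 32460 CPM in the day 28 libraries, lowest in replicate 3. The 9 fibroblast or stroma markers went from 811.9 ± 224 CPM on day 14 to 3809 ± 270 on day 28, with 6 called higher and 1 lower. The 4 smooth muscle markers went from 309.3 ± 115 to 2472 ± 273, all called higher. The 6 endoderm or liver markers went from 2988 ± 2030 to 175.4 ± 74.4, and the 8 endothelial markers from 181.7 ± 36.2 to 66.9 ± 2.02. The endothelial sum was already 444.9 ± 7.73 CPM on day 0, labelled stem cells, so it is not particular to endothelial cells. The part of cells with any of these markers in the rise was not tested. GC content did not go with this step across the 41 genes (r = 0.077), and with GC and length trends removed 15 genes were called higher, including all 8. Of the endothelial markers CLDN5 was at 0.024 ± 0.0416 CPM on day 28, and of the stroma markers TCF21 was at 0.369 ± 0.119.

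Against day 0, 39 of the 41 genes were lower on day 28 and 0 higher, beside 28.4% and 32.1% of all genes. DESeq2 called 0 higher as well, and 0 were higher at an unadjusted p below 0.05. The median was -2.32, that of all genes 0.09. Every day 28 library lay below every day 0 library in 40 genes and above in 0, against 36.4% and 39.6%. After ORC1, the deepest falls were RRM2 at -3.89 (SE 0.37, adjusted p = 1.46e-09), MCM10 at -3.60 (SE 0.48, adjusted p = 4.99e-07), MCM5 at -3.54 (SE 0.34, adjusted p = 2.24e-09) and CDT1 at -3.51 (SE 0.38, adjusted p = 1.73e-08). TYMS at -0.30 (SE 0.22, adjusted p = 0.234) and ORC4 at -0.36 (SE 0.21, adjusted p = 0.149) did not pass. The genes that rose after day 14 thus stayed below their stem cell level: MCM5 had 12.4 to 17.4 CPM on day 14, at most 58.4 on day 28, and at least 452.9 on day 0.

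Genes around the replication machinery were read beside the 41. Of 38 other replication factors, 22 fell and 0 rose from day 5 to day 7, against 5.02% and 5.32% of all genes. From day 14 to day 28, 7 rose and 0 fell, against 7.96% and 7.78%, with a median of 0.37. The latter included CLSPN, a checkpoint mediator at forks, at 1.71 (SE 0.47, adjusted p = 0.0126), and TK1, thymidine kinase, at 1.67 (SE 0.36, adjusted p = 0.00169). Of 23 regulators of S phase entry, 7 rose and 2 fell over that step, against the same 7.96% and 7.78%. The 2 that fell were CDKN1C, a CDK inhibitor, at -1.13 (SE 0.32, adjusted p = 0.0158) and E2F5, a repressing E2F factor, at -0.74 (SE 0.22, adjusted p = 0.0193). CDKN1A, the CDK inhibitor p21, rose by 1.48 (SE 0.32, adjusted p = 0.00177) and CCND2, cyclin D2, by 1.36 (SE 0.33, adjusted p = 0.00442). Between days 5 and 7 CCND2 had fallen by 2.79 (SE 0.34, adjusted p = 2.9e-06) and E2F1, an activating E2F factor, by 2.44 (SE 0.31, adjusted p = 3.55e-06). Other regulators were called lower over that step too, such as E2F2 at -1.86 (adjusted p = 0.00334), while CDKN1A rose by 1.02 (adjusted p = 0.0454). The summed mitosis genes went from 2645 ± 1323 CPM on day 5 to 1266 ± 76.7 on day 7. The inhibitor CDKN1B had -0.06 from day 14 to day 28 (adjusted p = 0.915). Of 20 mitosis genes, ANLN at 1.77 (SE 0.43, adjusted p = 0.00481) and KIF23 at 1.18 (SE 0.38, adjusted p = 0.0351), both cytokinesis genes, rose from day 14 to day 28 and 0 fell, a share near the 7.96% of all genes called higher; CDC20 had -0.14 (adjusted p = 0.873) and AURKB -0.01 (adjusted p = 0.992).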

How the data were processed

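RNA was measured in 23 libraries of H1-hESC derived cells, made with the TruSeq Stranded Total RNA kit per the labels' protocols. The deposited table holds raw read counts per gene, made by the authors with Trim Galore 0.65, STAR 2.7.0 and HTSeq on GRCh38 (hg38), per the submitters' processing notes. The strand setting of the counting is not given in the sources used here. The 44 copies of Y pseudoautosomal genes, all at 0, were left out. Symbols came from GENCODE release 44, while the authors name release 38; 56387 of 57477 genes had one.

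Genes with low counts were removed with filterByExpr (minimum 10). One edgeR 4.0.16 (R 4.3.3, limma 3.58.1) quasi-likelihood model with TMM scaling and day as factor was fitted to all libraries, and 9 comparisons were read from it, with Benjamini-Hochberg adjustment over 22245 genes. Alternatives were DESeq2 1.42.0, RLE size factors, library totals alone and no filter. Others were only the libraries of the days compared, a replicate block, and leaving out each library. Removal of GC and length trends and another TMM reference library were added after the data were seen. The trends were fitted to each library's deviation from the mean of all 23 libraries. Their removal therefore also takes out changes between days that go with GC or length, and the p-values treat the fitted trends as known. In each comparison the 4 called genes with the largest absolute change were named, plus those that changed least in a role and those that go against their role; for day 28 against days 14 and 0 and day 14 against day 7 any of the 41 could be named. The 41 genes and all lists were chosen with earlier results of these data known. In counts simulated for day 28 against day 14 (20091 genes), 26 of 100 seeded 2-fold changes were recovered, and 91 of 100 seeded 4-fold changes. Before seeding, each gene was set to its mean level over all 23 libraries, so recovery at the day 14 and day 28 levels was not measured. One result from the list of other replication factors is not reported here.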

Additional observations from a re-analysis of the deposited data

How the results depend on the processing

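With each library left out in turn, genes called higher on day 1 numbered 1 to 11 and lower 5 to 13. From day 3 to day 5 the higher calls numbered 0 to 9, the lower 0 to 5, and the median log2 change was -0.2625 to 0.0544. Lower calls numbered 0 to 10 from day 7 to day 10 and 0 to 2 from day 10 to day 14. From day 14 to day 28 higher calls numbered 4 to 9, and from day 7 to day 14 they numbered 0 to 2. Library totals alone gave 2 higher on day 1, 1 from day 1 to day 3, 1 from day 3 to day 5 and 1 from day 7 to day 14. Without the filter on low counts there were 4 higher on day 1, 0 higher and 1 lower from day 3 to day 5, and 1 higher from day 7 to day 14. With the libraries of the days compared alone there were 13 higher and 14 lower on day 1, 0 higher from day 3 to day 5, 10 lower from day 5 to day 7, 25 lower from day 7 to day 10, 1 lower from day 14 to day 28 and 4 higher from day 7 to day 14. RLE size factors and the other TMM reference each gave 1 higher from day 3 to day 5, and the latter 1 higher from day 7 to day 14. With GC and length trends removed the day 1 median was -0.0154, with 1 higher from day 1 to day 3, 3 lower from day 3 to day 5, 25 lower from day 7 to day 10, 15 higher from day 14 to day 28, 1 higher from day 7 to day 14, and ORC4 at -0.3490 over that step.

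From day 14 to day 28 some small log2 values, none called, changed sign. By library totals, which moved the median of all genes from -0.0276 to -0.2349, they were POLA1 at -0.0652, POLD2 at -0.0764, POLE2 at -0.0069, RFC1 at -0.1375, RFC3 at -0.1431 and RFC4 at -0.0524. Without the filter ORC3 had 0.0201 and LIG1 0.0623, with the other TMM reference LIG1 had 0.0190, and without GC trends RFC1 had -0.0370. With a library left out, the ranges were -0.2125 to 0.8005 for ORC1, -0.2106 to 0.0302 for ORC3, -0.0250 to 0.2695 for POLA1, -0.2432 to 0.0220 for PRIM2, -0.1021 to 0.5182 for POLE, -0.1917 to 0.3922 for POLE2, -0.0270 to 0.1445 for RFC1, -0.3161 to 0.2256 for RFC3, -0.2020 to 0.3195 for RFC4 and -0.2888 to 0.1233 for LIG1. The cause was not tested for any of these.

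No pairing of the samples by replicate number was seen. Libraries with the same number had a median correlation of deviations from the day mean of -0.001884 (from -0.4639 to 0.6510). Those with different numbers had 0.002563 (from -0.5887 to 0.7139). With so wide a spread these medians cannot exclude a pairing. With the replicate block, 8 genes were called higher from day 14 to day 28, and 32 lower from day 5 to day 7. No count of calls moved by over 1.5 times under the block. Where a day 10 library was left out, the lone day 10 library is assumed to vary like the other days.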
